A study of Mus musculus with 2 samples.

Results

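The genes followed here, 9 in number, are known regulators or markers of upper layer cortical neurons: Cux1, Cux2, Rorb, Pou3f1, Pou3f2, Pou3f3, Lhx2, Mef2c and Rasgrf2. They were chosen by name, and all 9 were found among the 55536 annotated genes of the deposited tables. The tissue was the left cerebral cortex of male mice at 4 days after birth, from the strain B6CASTF1/J, a first-generation cross of C57BL/6 and CAST mice. There was 1 group of 2 libraries, each of total RNA from 300 ng, with ribosomal RNA reduced and ERCC spike-ins added. The labels give each library a separate male tissue sample but list both under the same donor entry. No treatment, genotype or age was contrasted, so every difference below is between 2 libraries and not between conditions. Whole tissue was used, and in such bulk RNA fewer cells of a type and less RNA per cell cannot be told apart. The alleles of the parent strains were not told apart either.

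Upper layer neurons, the cells of cortical layers II to IV, are born late in cortical neurogenesis and send many of their axons within the cortex, across the corpus callosum or to nearby areas. Cux1 and Cux2 encode Cut-type homeodomain factors that shape the dendrites and synapses of these cells. The POU factors Pou3f2 and Pou3f3 act together in producing and moving them, Rorb is a nuclear receptor of layer IV, and Lhx2 is a LIM homeodomain factor that specifies cortex. Mef2c is a MADS-box factor that controls synapse number in response to activity, and Rasgrf2 is a calcium-responsive exchange factor for Ras and Rac that serves as an upper layer marker.

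Replicate 1 had a depth of 26897687 expected counts and replicate 2 of 29511737. An expected count is the number of reads assigned to a gene after ambiguous reads are shared out, and TPM is a level per transcript length, relative to all transcripts of the library, so that genes can be compared on it. Levels are means ± SD (n = 2). A ratio of replicate 2 over replicate 1 uses expected counts scaled by TMM, with a standard error from counting alone. Each ratio was tested, two-sided, by an exact binomial test on these counts, with p-values adjusted by Benjamini-Hochberg over all genes with 10 or more counts. The test compares these libraries only. The test called 26.7% of 20385 genes at an adjusted p under 0.05, 13.9% higher and 12.7% lower in replicate 2. Scaling by total counts changed the share of higher genes among those called from 52.3% to 41.9%, and scaling by ERCC spike-ins changed it to 10.5%. ERCC scaling lowered every ratio by the same step, and the median of all tested genes went from -0.00 to -0.15, so a small positive ratio below turns negative under it. Excitatory neuron markers were plentiful in both libraries, from Nrgn at 308 and 312 TPM down to Tbr1 at 65.7 and 59.4 TPM. Of these 6 markers, 3 were called higher and 1 lower in replicate 2, with log2 ratios from -0.27 to 0.39 and a median of 0.03.

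A few stretches of coding sequence show what tells close members and their isoforms apart. The Cux1 locus makes a Cut homeodomain factor and, by splicing to other 3′ exons, CASP, a Golgi membrane protein without the homeodomain. The transcripts share 13 coding exons up to the exon at chr5:136314307-136314403 (mm10, minus strand) and then go to the exon at chr5:136312643-136313008 or to that at chr5:136257913-136258040. The last 30 shared bases are in lower case and the first 30 of each branch in capitals, read from GENCODE M21 transcripts.
CUX1-type, Cux1-201: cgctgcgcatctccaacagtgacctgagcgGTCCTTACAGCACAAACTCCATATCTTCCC
CASP-type, Cux1-211: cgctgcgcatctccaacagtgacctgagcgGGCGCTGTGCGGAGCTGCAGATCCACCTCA

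Pou3f1, Pou3f2 and Pou3f3 are single-exon genes whose translations share an identical run of 68 residues, the longest that all 3 hold. The 204 coding bases of that run differ at 37 positions, which are in capitals below. The longest run without a difference is 20 bases, and 84.3% to 90.7% of bases are identical between pairs. They are shown because reads from these genes are told apart by such bases. Over whole transcripts, 8 of 3819 words of 31 bases in Pou3f1 occurred in another gene, which was Pou3f2. The portion shared with any other gene was 1.83% for Pou3f2 and 0.923% for Pou3f3. These shared words were spread over 1932 and 836 other genes, and none of those genes held more than 25 of 101 and 22 of 68 words. They are therefore not a measure of sharing among the POU genes.
Pou3f1, chr4:124658454-124658657, plus strand: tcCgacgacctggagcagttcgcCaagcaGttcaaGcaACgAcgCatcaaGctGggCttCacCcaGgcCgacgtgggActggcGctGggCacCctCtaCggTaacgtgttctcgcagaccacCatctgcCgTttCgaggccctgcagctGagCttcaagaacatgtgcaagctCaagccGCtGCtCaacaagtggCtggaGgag
Pou3f2, chr4:22487124-22487327, minus strand: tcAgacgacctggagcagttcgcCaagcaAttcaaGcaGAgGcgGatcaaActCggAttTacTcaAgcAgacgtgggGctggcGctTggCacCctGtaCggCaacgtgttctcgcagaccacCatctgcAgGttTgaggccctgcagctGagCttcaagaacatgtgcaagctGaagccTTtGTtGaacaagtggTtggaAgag
Pou3f3, chr1:42698091-42698294, plus strand: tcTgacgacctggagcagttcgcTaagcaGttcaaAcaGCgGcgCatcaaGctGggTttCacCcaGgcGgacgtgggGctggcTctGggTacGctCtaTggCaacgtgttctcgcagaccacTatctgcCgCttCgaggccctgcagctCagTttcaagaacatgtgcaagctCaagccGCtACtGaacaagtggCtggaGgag

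Mef2c transcripts choose between a pair of alternative exons after the MADS-box exons, often called alpha exons, and include or skip a 24-base exon known to be favoured in brain. The upstream alpha exon has 144 bases and the downstream one 138. The 24-base exon is printed in capitals with 18 bases of the coding exon on each side.
Upstream alpha exon, chr13:83625265-83625408, plus strand: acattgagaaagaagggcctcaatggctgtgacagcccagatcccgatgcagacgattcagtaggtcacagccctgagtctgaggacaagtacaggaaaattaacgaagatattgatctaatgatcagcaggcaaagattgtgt
Downstream alpha exon, chr13:83625470-83625607, plus strand: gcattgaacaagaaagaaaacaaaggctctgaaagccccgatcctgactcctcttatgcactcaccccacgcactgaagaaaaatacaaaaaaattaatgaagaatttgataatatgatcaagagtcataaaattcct
24-base exon, chr13:83654598-83654621, plus strand: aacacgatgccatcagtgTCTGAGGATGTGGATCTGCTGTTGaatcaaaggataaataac

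All 9 genes were above the median of the 13084 detected protein-coding genes, which was 17.6 ± 0.481 TPM. Mef2c led at 669 ± 3.87 TPM and ranked 51 of 22028 protein-coding genes, 6.33-fold above Cux2, the next. Pou3f1 was lowest at 24.6 ± 1.90 TPM and ranked 5141. From the top the order was Mef2c, Cux2, Cux1, Lhx2, Pou3f3, Rasgrf2, Rorb, Pou3f2 and Pou3f1. The other transcript table gave the same order of means, at higher levels such as 950 TPM for Mef2c. Lhx2 overlapped Pou3f3 between the libraries, and Rorb overlapped Pou3f2. The remaining neighbours did not overlap, although Cux2 in replicate 2 lay close to Cux1. In the other table Cux2, at 136 and 109 TPM, overlapped Cux1, at 122 and 120 TPM. All these levels sum every transcript model of a gene. With full-coding transcripts alone, Cux2 at 47.8 ± 4.16 TPM lay below Cux1 (72.2 ± 2.75 TPM, CASP-type included) and Pou3f3 (56.8 ± 6.74 TPM). It lay close to Lhx2 at 49.3 ± 7.90 TPM. Rasgrf2 was then lowest at 12.1 ± 1.90 TPM, although most of its models are incomplete. With 2 libraries no test of these orders was made.

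**Figure D1:**
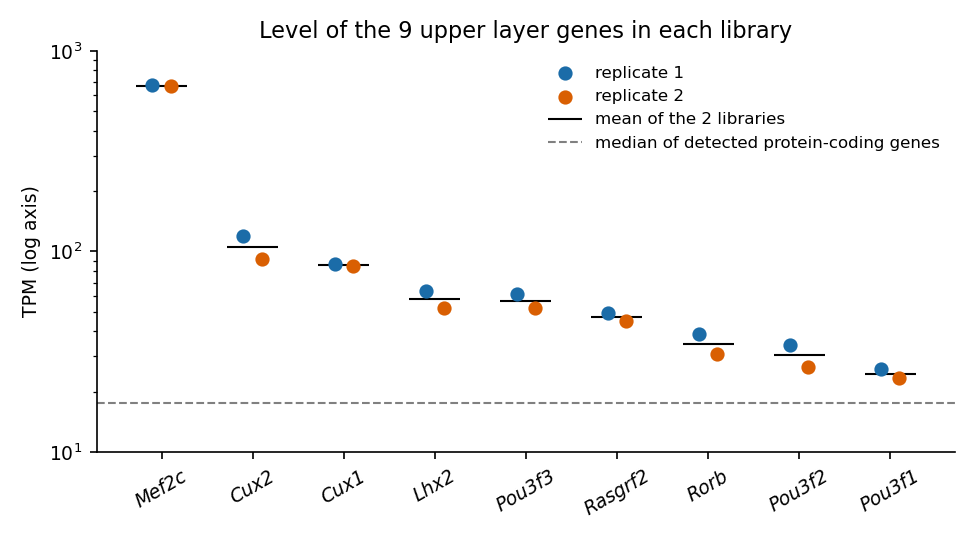
TPM (log axis) of the 9 genes in replicate 1 (blue) and replicate 2 (orange), with the mean as a bar and the median of detected protein-coding genes as a dashed line at 17.6 TPM. Mef2c stands 6.33-fold above Cux2, and all 9 genes lie above the dashed line in both libraries.

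Cux1 (ENSMUSG00000029705.17, chr5:136248135-136567490, minus strand) measured 86.3 TPM in replicate 1 and 84.5 TPM in replicate 2. Its level was 85.4 ± 1.32 TPM. The libraries were nearly equal in TPM and slightly lower in replicate 2, whereas the scaled counts were higher there. The reads numbered 6078 and 7202, and the log2 ratio of replicate 2 over replicate 1 was 0.14 (SE 0.0251, adjusted p = 3.95e-07 by the exact binomial test). With ERCC scaling the ratio was -0.0073 and not called (adjusted p = 0.879, exact binomial test). The gene's TPM is a sum over transcripts of unequal length, so it also moves with the mix of transcripts. TPM and scaled counts also differed across the libraries as a whole. By TPM 59.7% of detected protein-coding genes were lower in replicate 2, while the median log2 ratio of their scaled counts was 0.02. The part of each in the Cux1 values was not tested.

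Most Cux1 molecules were CASP-type per length, while most Cux1 reads were CUX1-type. A transcript was typed by its translated coding sequence: a CUX1-type transcript holds the C-terminal block shared with Cux2, and a CASP-type one lacks it and ends at the coding end of Cux1-211. The 3 CASP-type transcripts summed to 47.9 and 51.3 TPM, and the 5 CUX1-type transcripts to 22.4 and 22.9 TPM. CASP-type was higher in both libraries, with a log2 ratio of 1.13 ± 0.0478, that is 2.19-fold. In estimated reads the order turned, with 2227 and 2699 reads for CASP-type against 3493 and 4249 for CUX1-type.

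Cux1-211, the main CASP-type transcript, had 44.1 and 44.7 TPM from a length of 2831 bases. Cux1-201, the CUX1-type transcript with most reads, had 10.3 and 10.9 TPM from 12862 bases. The CUX1-type transcript Cux1-212 held 8.02 and 6.93 TPM. Cux1-208, of 805 bases with a coding sequence open at its ends, could not be typed and held 9.99 and 6.74 TPM. The other transcript table gave a log2 ratio of CASP-type over CUX1-type of 1.01. Other genes inside Cux1 were low: A430110C17Rik was at 1.62 and 1.05 TPM and Gm38082 at 1.45 and 0.94 TPM, on the same strand, and both were called lower in replicate 2.

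**Figure D2:**
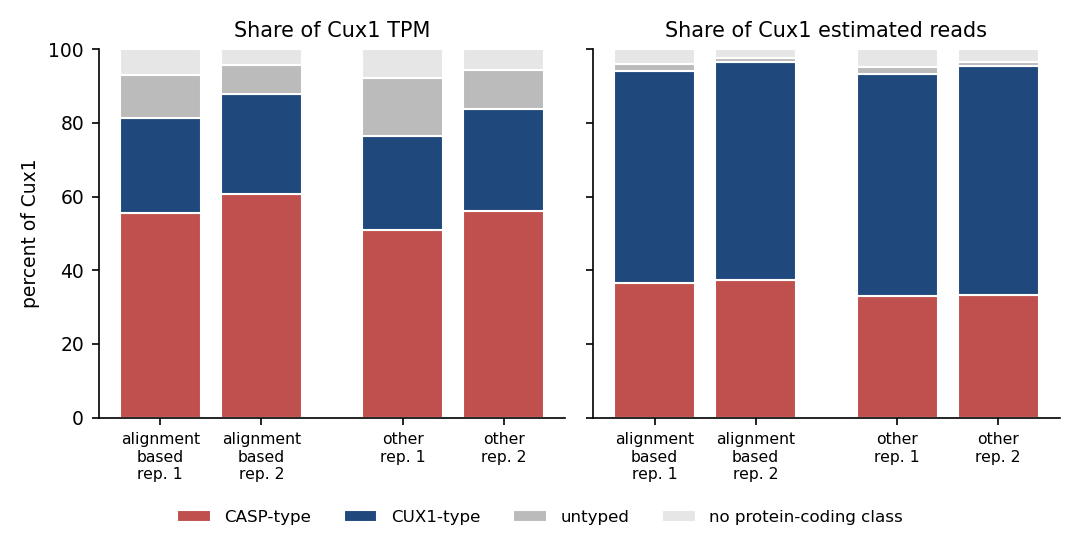
Percent of Cux1 TPM (left) and of Cux1 estimated reads (right) by transcript type, as stacked bars for each library and each transcript table. CASP-type takes 55.5% and 60.7% of TPM in the alignment-based table but 36.6% and 37.5% of reads.

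Cux2 (ENSMUSG00000042589.18, chr5:121856366-122050102, minus strand) measured 119 TPM in replicate 1 and 91.9 TPM in replicate 2. Its level was 106 ± 19.3 TPM, the second of the 9 with all transcript models summed. Replicate 1 was the higher library by TPM and by scaled counts. The reads numbered 6714 and 6613, and the log2 ratio was -0.13 (SE 0.0250, adjusted p = 6.2e-06, exact binomial test), so the scaled counts were 8.37% lower in replicate 2.

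Transcripts with a complete coding sequence took most Cux2 reads but a smaller share of its TPM. The full-coding transcripts Cux2-201, Cux2-202 and Cux2-210 each have 4278 coding bases. They differ in where they start and in total length, at 5113, 8784 and 4697 bases. Together they held 50.7 and 44.9 TPM, which was 45.7 ± 4.42% of Cux2 TPM and 88.3 ± 1.70% of its reads, and 60.1 ± 4.25% of TPM in the other table. Most of the remainder lay in short models, among them Cux2-211 with a retained intron (18.4 and 12.7 TPM), Cux2-203 (10.8% and 7.07% of Cux2 TPM), Cux2-204 (13.4 and 9.85 TPM) and Cux2-207 (12.5 and 12.7 TPM). Cux2-202, from the most upstream start of the full-coding transcripts, had 26.0 and 23.6 TPM. Cux2-201 had 9.20 and 10.4 TPM, but 41.9 and 36.0 TPM in the other table, where it led. Cux2-210 had 15.5 and 10.8 TPM, with interval bounds of 6.35 to 14.1 in replicate 2, and was listed at or near 0 in the other table. The tables therefore gave different accounts of the full-coding Cux2 transcripts, which differ in more than their start, and no start was named as leading.

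The starts of Cux2-202 and Cux2-201 lie in windows that differ in composition. The 250 bases before each are shown from RefSeq (GRCm38.p6), with capitals where a searched motif was found. The motifs were read on both strands. They were the octamer ATGCAAAT known from POU factors, the homeodomain core TAATTA, the nuclear receptor core site AGGTCA, the Cut-type site ATCGAT, the CCAAT box and the TATA-like TATAAA.
Cux2 at the start of Cux2-202, chr5:122049852-122050101, minus strand: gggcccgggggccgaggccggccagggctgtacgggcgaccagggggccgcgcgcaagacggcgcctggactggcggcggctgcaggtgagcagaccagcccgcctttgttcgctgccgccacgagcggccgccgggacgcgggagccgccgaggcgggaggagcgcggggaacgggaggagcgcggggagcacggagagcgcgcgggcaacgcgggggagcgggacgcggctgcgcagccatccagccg
Cux2 at the start of Cux2-201, chr5:122047826-122048075, minus strand: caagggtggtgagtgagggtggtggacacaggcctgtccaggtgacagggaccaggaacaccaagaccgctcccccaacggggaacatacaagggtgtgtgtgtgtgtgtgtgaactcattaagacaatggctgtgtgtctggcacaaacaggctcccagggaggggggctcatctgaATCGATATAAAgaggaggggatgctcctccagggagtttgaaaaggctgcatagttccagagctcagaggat

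The first window was 80.3% G and C over 300 bases and held none of the motifs. The second was 56.7% G and C and held ATCGAT 72 bases and TATAAA 67 bases before the start, overlapping by 1 base. Among 32851 promoters of the same length, 0.925% held ATCGAT and 13.6% held TATAAA. These matches describe letters and say nothing about binding.

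Per length, Cux2 exceeded Cux1 by a log2 ratio of 0.29 ± 0.24, at 0.47 in replicate 1 and 0.12 in replicate 2. The other table gave 0.15 and -0.13, so the order of the 2 genes was not fixed by these data. Counting only full-coding transcripts that encode the homeodomain, Cux2 had 50.7 and 44.9 TPM against 22.4 and 22.9 TPM for Cux1. The log2 ratio of those sums was 1.07 ± 0.15, and it was 1.19 ± 0.18 with the other quantification. This restricted comparison was chosen after the values were seen. Cathepsin L (Ctsl), a protease known to cut CUX1, was at 62.2 and 74.5 TPM and was called higher in replicate 2 (log2 ratio 0.23, adjusted p = 9.43e-05, exact binomial test).

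The POU genes stood in the order Pou3f3, Pou3f2, Pou3f1 in both libraries. Pou3f3 (ENSMUSG00000045515.3, chr1:42695768-42703176, plus strand) measured 61.5 TPM in replicate 1 and 52.0 TPM in replicate 2. Replicate 1 was higher, with reads of 7660 and 7323 and a log2 ratio of -0.17 (SE 0.0236, adjusted p = 2.52e-11, exact binomial test). Pou3f2 (ENSMUSG00000095139.2, chr4:22482780-22488366, minus strand) measured 34.3 and 26.5 TPM. It had the widest gap of the 9 genes in scaled counts, with a log2 ratio of -0.30 (SE 0.0373, adjusted p = 5.91e-14, exact binomial test), which is 1.23-fold.

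Pou3f1 (ENSMUSG00000090125.3, chr4:124656807-124660655, plus strand), a factor known also from Schwann cells, measured 26.0 and 23.3 TPM. Its reads numbered 1659 and 1683, and the ratio of -0.08 (SE 0.0499) was not called (adjusted p = 0.231, exact binomial test). Pou3f3 exceeded Pou3f2 by a log2 TPM ratio of 0.91 ± 0.0906. Pou3f2 exceeded Pou3f1 by 0.29 ± 0.15. Pou3f4, the X-linked paralog, was far lower at 2.84 and 4.22 TPM. Unlike the 3 genes it was called higher in replicate 2 (log2 ratio 0.64, adjusted p = 3.0e-04, exact binomial test). Translated, Pou3f2 and Pou3f3 were 70.4% identical in aligned residues, against 63.0% for Pou3f1 and Pou3f2.

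A lincRNA, Pantr1, starts 926 bases from Pou3f3 on the opposite strand. It measured 109 TPM in replicate 1 and 85.9 TPM in replicate 2. Replicate 1 was higher here too, with a log2 ratio of -0.30 (SE 0.0703, adjusted p = 1.9e-04, exact binomial test). The window before Pou3f3 lies between the starts of both genes and is shown with its CCAAT matches in capitals, which lie between 160 and 84 bases before the start.
Pou3f3, chr1:42695518-42695767, plus strand, RefSeq GRCm38.p6: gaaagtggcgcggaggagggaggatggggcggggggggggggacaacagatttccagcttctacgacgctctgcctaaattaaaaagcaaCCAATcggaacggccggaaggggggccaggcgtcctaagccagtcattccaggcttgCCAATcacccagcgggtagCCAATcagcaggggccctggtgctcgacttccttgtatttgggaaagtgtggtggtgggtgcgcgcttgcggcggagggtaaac

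CCAAT was found in 5 of the 13 windows listed for 8 of the 9 genes, against 37.4% of all 32851 promoters. Pou3f2 had it at 229 and 166 bases before its start. No window of these genes held ATGCAAAT, which 1.74% of all promoters held. Other annotated genes that overlap a POU gene or start within 5 kb of it were low. AC122898.1, which overlaps Pou3f3 in sense, was at 2.29 and 2.67 TPM. Gm2164, antisense to Pou3f1, was at 5.60 and 4.15 TPM from 31 and 26 reads, and Gm30731 beside Pou3f2 at 2.35 and 1.64 TPM. Whether the authors' counting used strand is not given in the sources used here, and reads of overlapping genes may not be fully separated. Known partners of POU factors were plentiful: Sox11 measured 111 and 88.1 TPM and was called lower in replicate 2 (log2 ratio -0.26, adjusted p = 9.3e-50, exact binomial test), and Sox2 measured 27.9 and 28.5 TPM.

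Lhx2 (ENSMUSG00000000247.11, chr2:38339281-38369733, plus strand) measured 63.9 TPM in replicate 1 and 52.4 TPM in replicate 2. Replicate 1 was higher, with 2224 and 1998 reads and a log2 ratio of -0.26 (SE 0.0445, adjusted p = 1.11e-07, exact binomial test). Lhx2 was spread over starts. Lhx2-201, of 1218 coding bases, held 31.2 and 23.7 TPM, and Lhx2-203, of 1095 coding bases from an upstream start, held 23.7 and 20.0 TPM. Lhx2-204, with a retained intron, held 2.64 and 3.62 TPM. The shares were 48.7% and 45.2% for Lhx2-201 and 37.1% and 38.2% for Lhx2-203. The related Lhx9 was near the detection limit at 0.900 and 1.27 TPM.

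Partners through which LIM homeodomain factors are known to work were all detected. The adaptor Ldb1 was at 76.3 and 78.4 TPM and Ldb2 at 59.9 and 52.9 TPM, and neither was called different. Lmo4, a competitor for the adaptors, was at 147 and 157 TPM and was called higher in replicate 2 (log2 ratio 0.15, adjusted p = 5.16e-05, exact binomial test). Ssbp2, which stabilises the adaptors, was at 166 and 142 TPM and called lower (log2 ratio -0.11, adjusted p = 4.0e-04, exact binomial test). Ssbp3 was at 72.9 and 70.0 TPM and not called.

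Rorb (ENSMUSG00000036192.15, chr19:18930605-19111196, minus strand) measured 38.7 TPM in replicate 1 and 30.8 TPM in replicate 2. Replicate 1 was higher, with 5554 and 5097 reads and a log2 ratio of -0.23 (SE 0.0280, adjusted p = 1.7e-14, exact binomial test). Rora, its paralog, was lower than Rorb per length in both libraries at 14.6 and 13.4 TPM. Its scaled counts were higher in replicate 2 (log2 ratio 0.35, adjusted p = 1.77e-09, exact binomial test), although its TPM was not.

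Rorb came almost wholly from 1 start. Rorb-203, from the upstream start, held 88.5% and 91.0% of Rorb TPM and 96.6% and 97.4% of its reads. The other table gave it 88.0% and 90.4% of TPM. The 4 transcripts of the downstream start summed to 4.46 and 2.78 TPM. The 250 bases before each start are printed because the starts differ so much in level.
Rorb upstream start, chr19:19111197-19111446, minus strand: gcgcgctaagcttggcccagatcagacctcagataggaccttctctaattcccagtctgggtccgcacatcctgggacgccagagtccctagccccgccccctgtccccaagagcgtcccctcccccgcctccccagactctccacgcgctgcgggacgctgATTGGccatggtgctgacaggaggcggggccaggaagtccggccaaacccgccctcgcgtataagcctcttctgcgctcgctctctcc
Rorb downstream start, chr19:19001118-19001367, minus strand: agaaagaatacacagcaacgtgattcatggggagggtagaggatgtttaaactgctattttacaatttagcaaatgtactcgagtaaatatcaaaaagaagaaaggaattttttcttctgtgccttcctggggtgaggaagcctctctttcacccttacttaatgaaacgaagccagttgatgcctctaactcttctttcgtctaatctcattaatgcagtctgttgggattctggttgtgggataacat

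The upstream window was 63.7% G and C with 20 CG pairs over 300 bases, and a CCAAT match on the other strand, ATTGG, lies 88 bases before the start. The downstream window was 41.0% G and C with 5 CG pairs and held none of the motifs. The median over all promoters was 52.7% G and C.

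Mef2c (ENSMUSG00000005583.16, chr13:83504034-83667080, plus strand) measured 671 TPM in replicate 1 and 666 TPM in replicate 2. The libraries were nearly equal in TPM. With 38283 and 42177 reads, the log2 ratio of 0.04 (SE 0.0102) was nonetheless called higher in replicate 2 (adjusted p = 0.0032, exact binomial test). Under total-count scaling it was 0.01 and not called (adjusted p = 0.724, exact binomial test), and under ERCC scaling it was -0.11 and called lower (adjusted p = 1.95e-26, exact binomial test). Per length Mef2c exceeded Mef2a, at 59.3 and 60.1 TPM, by a log2 ratio of 3.48 ± 0.0230, and Mef2d, at 56.2 and 59.8 TPM, by 3.53 ± 0.0710. Mef2b was below 1 TPM in both.

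**Figure D3:**
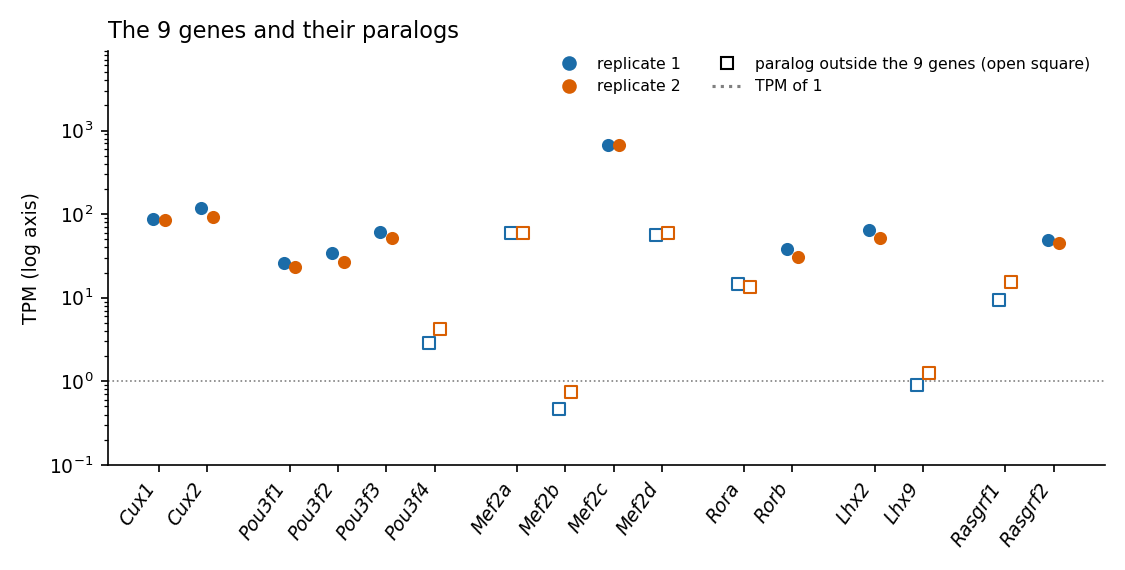
TPM (log axis) of the 9 genes (filled circles) and of paralogs outside them (open squares) in replicate 1 (blue) and replicate 2 (orange), grouped by family. Mef2c, Rorb, Lhx2 and Rasgrf2 lie above each paralog shown in both libraries, and Pou3f4 and Rasgrf1 are among those called higher in replicate 2.

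Mef2c-212 led in both transcript tables and took most Mef2c reads, but under 50% of its TPM. It starts at chr13:83573607 and held 282 and 277 TPM, 42.0% and 41.6% of Mef2c TPM and 75.0% and 75.7% of its reads. In the other table it held 34.1% and 32.8% of TPM. It joins the upstream alpha exon, the 24-base exon and the short form of the last coding exon, which lacks 96 bases of a part known as the gamma region. Among the 11 full-coding transcripts with an alpha exon, the upstream exon took 99.6 ± 0.0822% of TPM. The upstream exon was in 8 of them and the downstream one in 4, so a transcript holding both counted for each. Mef2c-219, a full-coding transcript at 83.4 and 92.2 TPM, holds neither of these exons and lay outside this share. When all protein-coding models were counted, fragments included, the upstream exon took 73.4 ± 2.51%. In the other table the values were 94.9% and 85.7%. The direction held in every case, and the size of the downstream exon's share depended on short models such as Mef2c-217, at 110 and 96.5 TPM. Mef2c-216, at 44.6 and 69.1 TPM, is a short model that was counted with the upstream exon.

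The 24-base exon was present in 77.7 ± 0.790% of informative full-coding TPM, and in 88.8 ± 1.47% in the other table. Most of the remainder was Mef2c-219, at 83.4 and 92.2 TPM in the alignment-based quantification, against 30.4 and 48.3 TPM in the other. It is a short model of 1257 bases and held 4.29% and 4.88% of Mef2c reads in the alignment-based quantification. The short last exon held 68.1 ± 1.61% of full-coding TPM, and 59.6 ± 0.414% in the other table. The libraries differed little in each of these shares, and the tables differed more than the libraries.

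**Figure D4:**
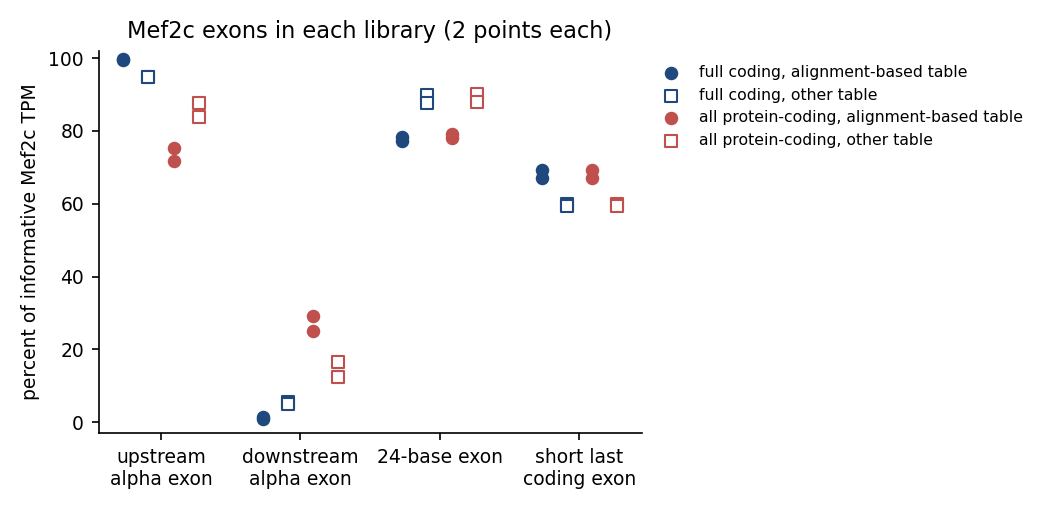
Percent of informative Mef2c TPM that carries each exon, with 1 point per library, for full-coding transcripts (blue) and all protein-coding models (red) in the alignment-based (circles) and the other (squares) transcript table. Among transcripts with an alpha exon, the upstream one takes 99.6% in full-coding transcripts and 73.4% with all models in the alignment-based table.

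Class IIa histone deacetylases, known to bind and repress MEF2 factors, were all present. Hdac5 was highest at 107 and 91.7 TPM and was the one called, lower in replicate 2 (log2 ratio -0.15, adjusted p = 1.5e-04, exact binomial test). Hdac4 was at 38.3 ± 3.50 TPM, Hdac9 at 22.1 ± 1.47 TPM and Hdac7 at 19.9 ± 0.870 TPM.

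Rasgrf2 (ENSMUSG00000021708.17, chr13:91880400-92131656, minus strand) measured 49.5 TPM in replicate 1 and 44.9 TPM in replicate 2. Its reads numbered 2791 and 2868, and the log2 ratio of -0.07 (SE 0.0384) was not called (adjusted p = 0.221, exact binomial test). Rasgrf1, its paralog, was lower in level at 9.37 and 15.5 TPM and was called higher in replicate 2 by a log2 ratio of 0.88 (SE 0.0765, adjusted p = 4.51e-30, exact binomial test). The log2 ratio of Rasgrf2 over Rasgrf1 therefore ran from 2.39 to 1.53.

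The transcript models of Rasgrf2 are mostly incomplete. Rasgrf2-205, whose coding sequence is open at its 5′ end, led with 19.3 and 17.3 TPM and took 67.0% and 66.3% of reads. Full-coding models took 25.6 ± 2.27% of TPM and 20.8 ± 0.577% of reads. Rasgrf2-203 held 11.9 and 13.8 TPM, and Rasgrf2-201, with the longest coding sequence, 5.23 and 5.92 TPM. The other table gave Rasgrf2-201 more, 16.5 and 16.0 TPM. Rasgrf2-206, a full-coding model, had 8.22 and 4.85 TPM, and 6.42 and 3.20 TPM in the other table. Of the small GTPases that exchange factors of this kind act on, Rac1 was at 211 ± 2.45 TPM, Hras at 101 ± 5.32 TPM and Nras at 96.8 ± 14.7 TPM. Hras was called higher and Nras lower in replicate 2.

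By scaled counts 7 of the 9 genes were called different, 5 lower (Cux2, Lhx2, Pou3f2, Pou3f3, Rorb) and 2 higher (Cux1, Mef2c) in replicate 2, where 26.7% of all tested genes were called. With ERCC scaling 8 were called, all lower, and Cux1 was not called, where 34.4% of all tested genes were called, 30.8% lower and 3.62% higher. Genes with many reads are called more often: among the 3719 genes with at least the reads of Pou3f1, 56.8% were called, 20.1% lower and 36.7% higher. The median log2 ratio of the 9 genes was -0.13, beside -0.00 for all tested genes. The widest difference among the 9 genes was 1.23-fold in TMM-scaled counts (Pou3f2), 1.30-fold in TPM (Cux2) and 1.36-fold with ERCC scaling (Pou3f2). The Cux2 value sums all its transcripts, short models included, and its full-coding transcripts lay closer together at 50.7 and 44.9 TPM. By TPM all 9 genes were lower in replicate 2, as were 59.7% of detected protein-coding genes. Only 8 of the 9 were lower in the other transcript table, as were 52.6% of those protein-coding genes. Mef2c was higher in replicate 2 there, at 928 and 971 TPM. Scaling by ERCC spike-ins moved the median log2 ratio of all genes to -0.15 and that of the 9 genes to -0.27.

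Other upper layer genes did not move together. Of 13 further upper layer genes, 5 were called higher, 2 lower and 6 not at all, with a median log2 ratio of 0.05. Bhlhe22, a helix-loop-helix factor, was lower in replicate 2 at 89.2 and 65.6 TPM (log2 ratio -0.37, adjusted p = 9.83e-32, exact binomial test). Dkk3 was higher in replicate 2, at 29.2 and 36.7 TPM (log2 ratio 0.40), as were Mdga1, Lmo4, Plxnd1 and Epha3. Lpl was the other gene called lower. Unc5d, Calb1, Nectin3, Cartpt, Inhba and Cited2 were not called.

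Deep layer genes were as mixed: 3 of 10 were higher (Foxp2, Etv1, Bcl11b), 3 lower (Crym, Sox5, Fezf2) and 4 not called (Tbr1, Ldb2, Tle4, Zfpm2), with a median of -0.02. Their median level was 35.2 ± 5.31 TPM, and it differed from the 32.9 ± 5.30 TPM of the other upper layer genes by less than the spread between libraries. The order turned between the libraries, with deep layer medians of 39.0 and 31.5 TPM against 29.2 and 36.7 TPM. In the other transcript table the gap was wider, at 55.2 TPM against 45.4 TPM. Of 15 known partners of the 9 genes, 3 were called higher and 4 lower. Of 7 paralogs 4 were called higher and none lower. Lmo4 and Ldb2 each stand in a pair of these lists.

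Markers of other cell types and regions differed between the libraries in the same comparison. All 5 olfactory bulb markers were called higher in replicate 2, with a summed level of 16.6 TPM in replicate 1 and 58.8 TPM in replicate 2. The highest of them, Cdhr1, went from 5.73 to 29.3 TPM, and Tbx21 from 0.10 to 1.80 TPM. Eomes went from 1.62 to 6.19 TPM and Pcp4l1 from 4.49 to 15.3 TPM. All 6 striatum markers were higher, summing to 81.6 and 122 TPM, as were all 5 red blood cell markers, at 215 and 456 TPM. Of these, Hbb-bs was 2.46-fold, Hba-a2 2.41-fold and Hbb-bt 2.22-fold higher in scaled counts. Interneuron markers were called higher in 4 of 5 cases (242 and 306 TPM summed) and astrocyte or radial glia markers in 5 of 6 (722 and 760 TPM). Thalamus markers were called in 2 of 5 cases, oligodendrocyte precursor markers in 2 higher and 3 lower of 5, microglia markers in none of 5 and endothelial or mural markers in 1 of 5, lower. No marker of these lists had 0 reads in a library. The part of these differences in the members' ratios was not tested.

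**Figure D5:**
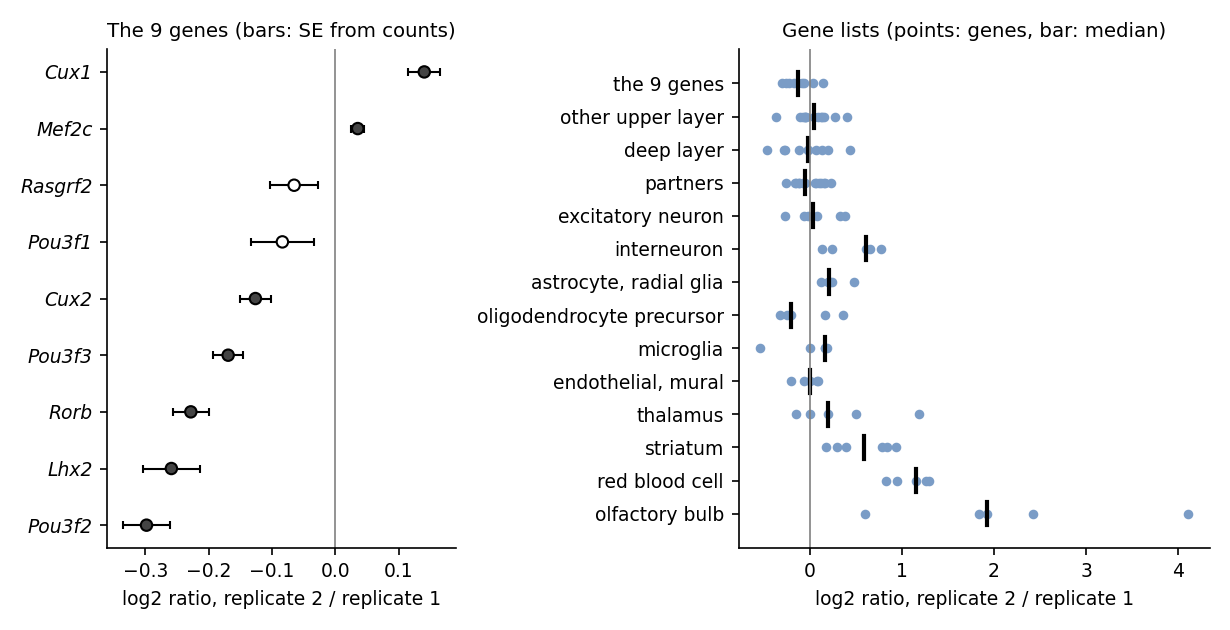
Left: log2 ratio of replicate 2 over replicate 1 (TMM-scaled counts) of the 9 genes, with standard errors from counting, filled where called. Right: the same ratio for the genes of each list (points) and the list median (bar). The medians run from -0.20 for oligodendrocyte precursor markers, with -0.13 for the 9 genes, to 1.92 for olfactory bulb markers.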

How the data were processed

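For every library the authors deposited 3 tables: genes, alignment-based transcripts and a further transcript quantification. The first 2 give expected counts, TPM, posterior mean TPM and a lower and an upper TPM bound (a signal that is never negative), per the file headers. The alignment-based transcript table adds each transcript's percent of its gene, per the file headers. Estimated counts and TPM fill the further table, per the file headers. The deposited notes name mm10 and GENCODE M21. Aligner, quantifiers, versions and use of strand: not given in the sources used here.

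All 55536 gene identifiers matched M21, which gave symbols, coordinates and coding sequences. The 97 spike-in rows (0.323% and 0.351% of expected counts) and 26248 numeric rows without a gene name (6 and 2 reads) stayed out of library sizes and tests. A count of 0 allows up to 3 counts, 0.112 and 0.102 CPM. Limits of this kind, standard errors and binomial p-values cover counting error only.

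Expected counts were rounded to whole numbers for the binomial test and scaled by TMM in edgeR 4.0.16 (R 4.3.3), with a prior count of 0.5 for ratios. TPM ratios added 0.1. Genes count as detected at 1 TPM or more in both libraries. The test was tried on simulated data: with 20454 genes it recovered 99.5% of 200 genes changed 2-fold and called 14 of 20254 unchanged genes. The simulated libraries held counting error only, as the test assumes, and the changed genes were drawn from well-covered ones. The trial therefore checks the calculation alone. It cannot show how the test behaves where libraries vary beyond counting or differ by less than 2-fold. Python 3.11.15, scipy 1.17.1 and Biopython 1.88 were used. Alternatives were scaling by total counts, DESeq2 1.42.0 size factors or ERCC spike-ins, no count filter, the further transcript table, posterior mean TPM, a pseudocount of 1 and leaving out a library.

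Sequences came from GENCODE M21 transcripts and from RefSeq promoter windows (GRCm38.p6, 250 bases before to 50 after a start), which listed 8 of the 9 genes. The rule allowed naming the 9 genes, the fixed lists of upper and deep layer genes, paralogs and partners, the highest and lowest genes of marker lists and those called with a 2-fold difference, transcripts with 10% or more of a gene, and neighbours within 5 kb. A few genes of these lists are not reported here and were left out of the lists' counts and medians. Members and lists were chosen with earlier results of these data known.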

Additional observations from a re-analysis of the deposited data

How the results depend on the processing

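The number of the 9 genes called different stayed between 6 and 8 under 5 alternatives, while the share of all tested genes called ran from 17.6% (no count filter) to 34.4% (ERCC scaling). With ERCC scaling the ratios of Cux1 (-0.0073) and Mef2c (-0.11) changed sign, under a shift of -0.15 in the median of all genes, and 8 genes were called, all lower; the cause was not tested. The other transcript table gave a median of 45.4 TPM for the other upper layer genes and 55.2 TPM for the deep layer genes, a log2 ratio of Cux2 over Cux1 of 0.011 and a log2 ratio of CASP-type over CUX1-type of 1.01. The Cux2 over Cux1 ratio was 1.07 with homeodomain-coding, full-coding transcripts, an alternative chosen after seeing the data. Leaving out 1 library gave 29.2 to 36.7 TPM for the other upper layer median, 31.5 to 39.0 TPM for the deep layer median, 0.12 to 0.47 for Cux2 over Cux1 and 1.10 to 1.16 for CASP-type over CUX1-type. Restricting that ratio to full-coding transcripts could not change it, because the transcripts removed were listed at 0. Of 36 alternative values for the TPM levels of the 9 genes, 10 differed from the main mean by at least the SD of the libraries. Leaving out a library cannot do so. In the other transcript table Mef2c was at 950 TPM and ranked 67, and Cux1 was at 121 TPM. The SDs of the levels therefore do not cover the difference between tables. The leading transcript was the same in both tables for 8 of 9 genes, Cux2 being the exception. Of these genes, 3 (Pou3f1, Pou3f2 and Pou3f3) have only 1 annotated transcript, so their leading transcript could not differ. No paired analysis was possible because there is only 1 group. With 2 libraries no result carries a test over animals, and short or incomplete transcript models limit every isoform share.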
